A study of Mus musculus with 30 samples.

Results

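The loss of Rb1, which encodes the retinoblastoma protein, was compared between the villi and the crypts of the mouse small intestine. The quantity reported is a difference of effects, the log2 difference between Rb KO and control in villi minus the same difference in crypts, so a positive value means that expression was raised more, or lowered less, in villi. It was computed for 12735 genes from 20 of the 30 arrays in the series. These were 5 arrays each of control villi, Rb KO villi, control crypts and Rb KO crypts, in which the villus and crypt arrays of one genotype and number were treated as 1 animal, 10 animals in all. The mice were 2 months old, and tissue was taken 5 days after Rb1 was deleted with Ah-cre, an inducible Cre directed to the intestine. Its promoter responds to aryl hydrocarbons. The labels do not say whether the controls carried Ah-cre or received the inducer, nor do they give the strain. They also do not say that the replicates were separate animals, so p-values measure the spread between these samples, which may be technical in part.

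The retinoblastoma protein binds the E2F transcription factors and keeps genes of DNA replication and division silent until a cell commits to S phase. In the small intestine the stem cells and the dividing progenitors lie in the crypts, and their daughters stop dividing as they move onto the villi, where mature enterocytes digest and absorb nutrients. Rb shares its E2F-binding work with the related pocket proteins p107 and p130, which also silence division genes as part of the DREAM complex.

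The labelled tissues were checked against their markers. Crypt arrays carried the stem cell gene Olfm4 at group means of 13.91 in control and 13.81 in Rb KO, and the Paneth cell gene Lyz1 at 15.03 and 14.98. Villus arrays carried Ada, an enzyme of villus enterocytes, at 14.17 in control and 14.46 in Rb KO, and the brush border enzyme gene Lct at 14.08 and 13.93. Lyz1 stood at 12.46 and 13.21 in the villus arrays, so crypt transcripts were present there too. Lct stood at 11.76 and 12.29 in the crypt arrays, so transcripts of villus enterocytes were present in those as well. The array medians lay between 6.28 and 6.34 in villi and between 6.67 and 6.72 in crypts, and whether the tissues were normalized together is not given in the sources used here. A gap between villus and crypt value of an animal therefore has no absolute meaning, and only the change of that gap from control to Rb KO was read, in which a constant offset between tissues cancels. Within a group, arrays correlated with each other at 0.987 to 0.9973 across genes, and precision is limited by their number.

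Rb1 itself was read before the other genes. In villi its values were 9.14, 9.38, 10.21, 10.01 and 9.93 in the controls and 8.34, 8.19, 8.30, 8.28 and 8.23 in Rb KO. In crypts they were 9.32, 9.63, 10.49, 10.37 and 9.76 in the controls and 8.20, 8.14, 8.29, 8.27 and 8.30 in Rb KO. In both tissues the groups were fully apart, with Rb KO the lower. The fall was 1.46 on the log2 scale in villi and 1.68 in crypts, and the difference of effects was 0.21 with a 95% interval from −0.01 to 0.43 (limma adjusted p = 0.162). Whether the probe sets lie in the deleted part of the gene is not known here, so this value does not compare how completely the tissues lost Rb1.

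Across all genes 2604 of 12735 had a difference of effects past the threshold of an adjusted p of 0.05 in limma, which is 20.4%. The difference was positive in 1241 of them (9.74% of the genes tested) and negative in 1363 (10.7%), and 4283 genes had an unadjusted p under 0.05. Without the animal as a block 1571 genes passed, 1560 of them among the 2604. In 1698 of the 2604 genes the 5 Rb KO gaps between villi and crypts lay fully apart from the 5 control gaps. Over all 12735 genes tested, 1858 were fully apart in this way. A difference of at least 1, which is a factor of 2 between the effects, was seen in 216 genes on the positive side and 50 on the negative side. The median over all genes tested was −0.013. Within each tissue alone, 29.0% of the genes were called in villi and 10.7% in crypts.

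**Figure D1:**
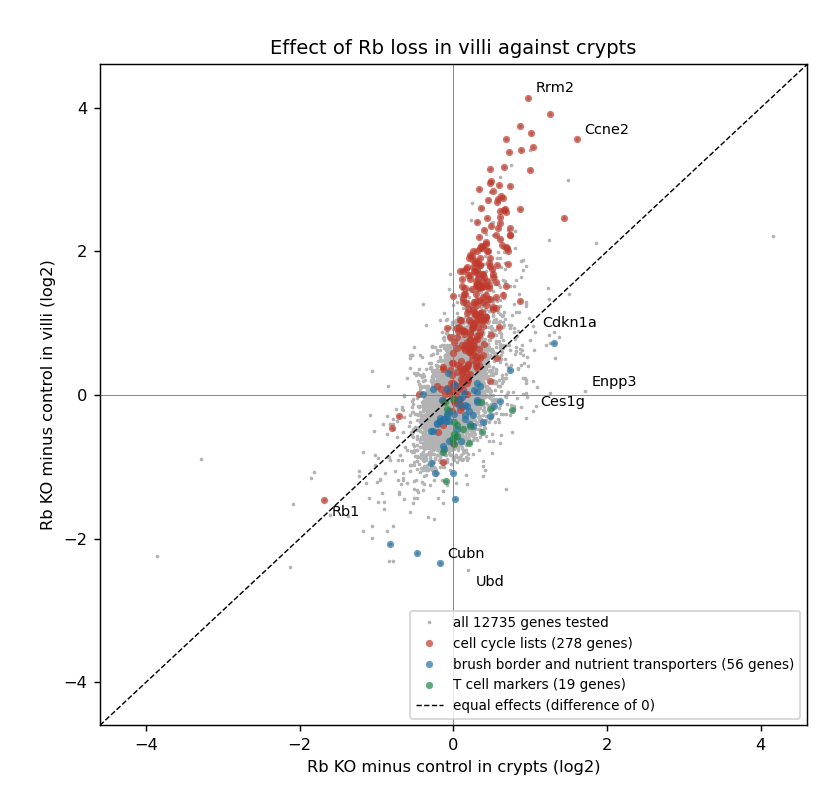
Effect of Rb loss on each of 12735 genes in crypts (horizontal axis) and villi (vertical axis), both as log2 Rb KO minus control, with the dashed line at equal effects; the vertical distance to the line is the difference of effects. The 278 genes of the cell cycle lists (red) form a steep band with a median effect of 1.16 in villi and 0.29 in crypts, brush border and transporter genes (blue) include Cubn far below the line, and Enpp3 and Ces1g lie to the right with an effect in crypts.

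The called genes were sorted by where the effect lay. Of the 1241 positive differences, 665 belonged to genes that rose in villi and were not called in crypts, and 387 to genes that rose in both tissues and rose more in villi. Of the 1363 negative differences, 916 belonged to genes that fell in villi and were not called in crypts, and 66 to genes that fell in both and fell more in villi. Genes with an effect called in crypts only were fewer, 79 that rose there and 34 that fell. In 5 genes the called effects ran in opposite directions. Neither effect was called on its own in 150 genes with a positive and 297 with a negative difference.

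Rb loss raised 707 genes in both tissues. The median effect of these genes was 0.76 in villi and 0.35 in crypts, the effect was the larger one in villi in 644 of them, and the difference of effects was called in that direction in 387 and in the other in 2. For 318 of the 707 genes the difference was not called. It lowered 234 genes in both tissues, with median effects of −0.55 and −0.34. The difference was called as a larger fall in villi for 66 of these, as a larger fall in crypts for 3, and not called for 165.

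The genes of DNA replication and cell division made up most of the large positive differences. In the 12 lists that cover them, 278 genes were tested, and 207 (74.5%) had a positive difference and 2 a negative one, beside 9.74% and 10.7% of all genes. Their median difference was 0.84, with a median effect of 1.16 in villi and 0.29 in crypts. Of these genes 147 rose in both tissues, and 14 of the 147 had no called difference. The mean of the 278 genes on each array, set to 0 over the arrays of a tissue, was −0.57, −0.89, −0.60, −0.21 and −0.83 in control villi and 0.66, 0.44, 0.45, 0.78 and 0.76 in Rb KO villi. In crypts it was −0.14, −0.27, −0.09, −0.08 and −0.16 in control and 0.12, 0.11, 0.14, 0.24 and 0.13 in Rb KO. The genotypes were apart in both tissues, with the wider step in villi. The control villus array of highest score, that of animal 4, was also the one with the most crypt marker RNA.

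Promoter sequences are shown for 4 genes of these lists, because replication genes and mitotic genes are silenced through different elements, the E2F site and the cell cycle homology region (CHR). The stretches hold the 120 bases before the start in the RefSeq promoter table for GRCm38.p6, written 5′ to 3′ on the strand of the gene. Capitals mark matches on either strand to the E2F motifs TTTCCCGC, TTTGGCGC, TTTCGCGC and TTTGCCGC or to the CHR motif TTTGAA. Matches of the first pair in Mcm6 overlap.
Mcm6, a subunit of the replicative helicase, chr1:128359706-128359825, minus strand: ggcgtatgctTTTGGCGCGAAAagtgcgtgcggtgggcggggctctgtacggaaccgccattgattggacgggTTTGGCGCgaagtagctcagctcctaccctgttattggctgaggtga
Rbl1, the gene of p107, chr2:157204535-157204654, minus strand: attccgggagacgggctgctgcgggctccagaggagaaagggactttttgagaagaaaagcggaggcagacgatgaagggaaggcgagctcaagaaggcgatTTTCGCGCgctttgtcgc
Mki67, the gene of the proliferation marker Ki-67, chr7:135716380-135716499, minus strand: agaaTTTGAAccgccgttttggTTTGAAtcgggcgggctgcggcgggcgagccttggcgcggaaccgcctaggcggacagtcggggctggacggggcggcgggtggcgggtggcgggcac
Top2a, the topoisomerase that separates replicated chromosomes, chr11:99024190-99024309, minus strand: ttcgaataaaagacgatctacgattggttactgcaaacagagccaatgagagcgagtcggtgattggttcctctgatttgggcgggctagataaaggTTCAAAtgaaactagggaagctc

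In the table's promoters, which are longer and run a little past the start, an E2F motif stood in 33.3% of those of the replication fork list and 37.9% of those of the pre-replication list, but in 2.6% of those of the list of mitotic kinases and cyclins. The CHR motif stood in 69.2% of the promoters of the mitotic list, 75.0% of those of mitotic kinesins and 7.4% of those of the replication fork list. The split was not clean. The CHR motif stood in 20.7% of the promoters of the pre-replication list, and an E2F motif in 16.7% of those of mitotic kinesins. In the kinetochore list the shares were 17.1% for E2F and 34.3% for CHR. Over all 32851 promoters in the table the shares were 2.3% and 17.9%, and over the genes tested 3.7% and 12.2%. Among genes with a positive difference of at least 1 the shares were 21.0% and 30.6%, and among genes with a called negative difference an E2F motif stood in 2.0%. A match describes the sequence and is not evidence of binding.

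Among the factors that Rb controls, the E2F and DP genes had their largest differences in the atypical members. E2f7, an atypical E2F that represses other E2F targets, had gaps between villi and crypts of −3.11, −3.38, −2.91, −2.18 and −3.09 in the controls and 0.00, −0.60, −0.53, −0.21 and −0.20 in Rb KO. The 10 animals did not overlap by genotype, which was a condition for naming a gene among the largest differences. Its difference was 2.63 ± 0.19 (SE, adjusted p = 3.1e-06), from a rise of 3.64 in villi and 1.01 in crypts. E2f8, the other atypical E2F, differed by 1.95, E2f2, an activator, by 1.47, and Tfdp1, the DP partner that E2F proteins need to bind DNA, by 1.15. The difference was positive for 7 of 10 genes of this list (70%, beside 9.74% of all genes) and negative for none.

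E2f1, the activator most studied as an Rb partner, differed by 0.36 (95% interval 0.11 to 0.60, adjusted p = 0.042) on the probe set of highest signal, after a rise of 0.95 in villi and 0.59 in crypts. Its other probe sets gave 0.93 and 0.04, and the call was lost in 13 of 26 alternative settings. The remaining 3 members, E2f3, E2f4 and E2f5, had differences of 0.16, −0.07 and 0.13 that did not pass. The other probe set of E2f3 was called in the opposite direction, at −0.37.

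Of the pocket proteins, Rbl1 and Rbl2 differed in opposite directions. Rbl1 had gaps of −0.81, −0.65, −0.82, −0.68 and −0.51 in the controls and 0.26, −0.23, 0.04, −0.14 and −0.08 in Rb KO. Its difference was 0.66 ± 0.10 (adjusted p = 0.00091), with a rise of 1.21 in villi and 0.55 in crypts, while 1 of its 4 probe sets was called the other way at −0.30. Rbl2, the gene of p130, had gaps of −0.14, 0.21, 0.12, 0.02 and 0.32 in the controls and −0.61, −0.43, −0.61, −1.11 and −0.73 in Rb KO. It fell by 0.93 in villi, its effect of −0.13 in crypts did not pass, and its difference was −0.81 ± 0.13 (adjusted p = 0.00093). Both genes were apart by genotype. Rbbp4, a chromatin protein that the MuvB core and several histone complexes share, differed by 0.75, and Lin9, a MuvB subunit, by 0.51. Foxm1 and Mybl2, factors that take over on CHR promoters in G2, had differences of 0.02 and 0.23 that did not pass.

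**Figure D2:**
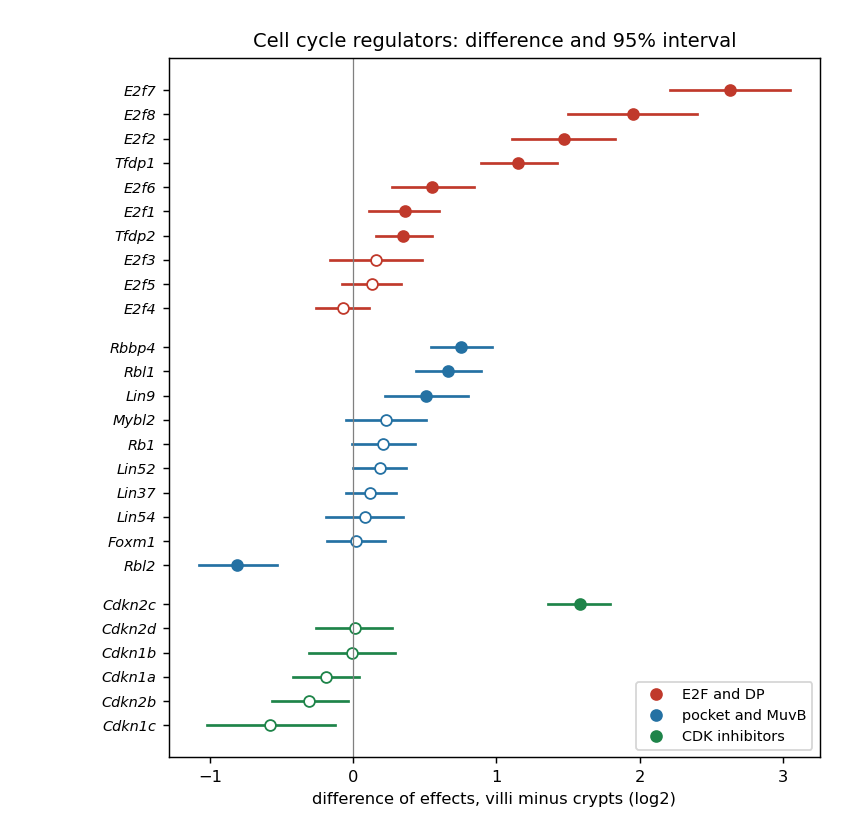
Difference of effects (villi minus crypts, log2, horizontal axis) of the genes of the E2F and DP, pocket protein and MuvB, and CDK inhibitor lists, with 95% intervals from limma; filled points passed an adjusted p of 0.05. E2f7, E2f8, E2f2, Tfdp1 and Cdkn2c lie at 1.15 or above, Rbl2 at −0.81, and the intervals of Cdkn1a, Cdkn1b and Cdkn2d cross 0.

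The CDK inhibitors, which stop the kinases that inactivate Rb, did not move together. Cdkn2c, the gene of p18, had gaps of −2.38, −2.20, −2.43, −2.19 and −2.49 in the controls and −0.64, −0.94, −0.85, −0.83 and −0.55 in Rb KO. Its difference was 1.58 ± 0.10 (adjusted p = 1.3e-06), and it was the only one of 6 inhibitors called. This is 16.7%, beside 20.4% of all genes called in either direction. Cdkn1a, the gene of p21, rose in both tissues, by 0.87 in villi and 1.06 in crypts. Its gaps were 0.96, 0.87, 1.01, 1.08 and 1.39 in the controls and 0.83, 1.02, 0.90, 0.96 and 0.68 in Rb KO, which overlap. Its difference of −0.19 had a 95% interval from −0.42 to 0.04. Cdkn2d, the gene of p19, rose by 0.65 in both tissues, and its difference of 0.01 had an interval from −0.26 to 0.27. Cdkn1b, the gene of p27, fell by 0.86 in villi and 0.85 in crypts, with a difference of −0.01 and an interval from −0.31 to 0.29.

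At the G1/S step 14 of 18 genes had a positive difference (77.8%, beside 9.74% of all genes) and none a negative one, with a median of 1.13. Ccne2, a cyclin E gene that pairs with CDK2 to start S phase, had gaps of −2.33, −1.20, −1.58, −1.98 and −1.84 in the controls and 0.63, 0.00, 0.13, 0.24 and −0.19 in Rb KO. Its difference was 1.95 ± 0.20 (adjusted p = 3.6e-05). It had one of the larger effects in crypts, 1.61, beside 3.56 in villi. Ccne1 differed by 1.02, from 2.46 in villi and 1.44 in crypts, and Cdk2 by 1.57. Tcf19, a gene turned on at the G1/S boundary, differed by 2.65 ± 0.18, and Uhrf1, which guides DNA methylation to newly made DNA, by 2.32. The D cyclin gene Ccnd3 rose in both tissues, by 0.52 in villi and 0.57 in crypts, and its difference of −0.05 (95% interval −0.26 to 0.16) was not called.

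DNA synthesis genes had the largest differences of all named genes. Rrm2, a subunit of ribonucleotide reductase, which makes deoxynucleotides, had values of 7.29, 5.95, 7.21, 8.07 and 6.67 in control villi and 11.37, 10.94, 11.03, 11.31 and 11.26 in Rb KO villi. In crypts its values were 10.42, 10.25, 10.51, 10.63 and 10.74 in control and 11.42, 11.42, 11.49, 11.51 and 11.55 in Rb KO. Rb KO was above control on every array of both tissues, with a rise of 4.14 in villi and 0.97 in crypts. The difference was 3.17 ± 0.27 (95% interval 2.60 to 3.75, adjusted p = 8.1e-06). In the dNTP supply list 7 of 11 genes had a positive difference (63.6%, beside 9.74% of all genes), among them Tk1 with 2.12 and Rrm1 with 1.86. The 1 negative member (9.09%, near the 10.7% of all genes) was Samhd1, an enzyme that breaks deoxynucleotides down, with −0.66 (adjusted p = 0.0182).

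At the replication fork 26 of 27 genes had a positive difference (96.3%, beside 9.74% of all genes), with a median of 1.22. Prim1, the catalytic subunit of the primase, had gaps of −3.45, −3.76, −3.64, −2.64 and −3.80 in the controls and −0.48, −0.60, −0.80, −0.53 and −0.46 in Rb KO, a difference of 2.89 ± 0.19. Pclaf, a partner of the clamp PCNA, differed by 2.88 and Pola1, the catalytic subunit of polymerase alpha, by 2.51. Lig1, the ligase that joins Okazaki fragments, had the smallest p of its list with a difference of 2.14 ± 0.11 (adjusted p = 8.9e-07), and Pcna differed by 1.49. Pole3 was the member not called, with −0.21.

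Of 31 pre-replication and origin firing genes 26 had a positive difference (83.9%, beside 9.74% of all genes) and none a negative one. Mcm6 had gaps of −3.12, −4.11, −3.69, −2.82 and −3.20 in the controls and −1.02, −0.80, −0.94, −0.75 and −0.76 in Rb KO, a difference of 2.53 ± 0.20. Mcm7 and Mcm4, of the same helicase ring, differed by 2.26 and 1.91. Cdc6, which loads the helicase, differed by 2.13 and Clspn, a checkpoint mediator at the fork, by 2.17. The origin recognition genes Orc1, Orc2, Orc3 and Orc4 were among the 5 not called, with values from −0.08 to 0.22.

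Mitotic genes followed. Mki67 had gaps of −3.45, −4.43, −3.76, −2.93 and −4.49 in the controls and −1.11, −1.45, −1.24, −0.96 and −0.92 in Rb KO. The genotypes did not overlap, which its choice among the largest differences required. Its rise of 3.14 in villi and 0.47 in crypts gave a difference of 2.68 ± 0.25 (adjusted p = 2.3e-05). Among mitotic kinases, cyclins and checkpoint genes 37 of 42 had a positive difference (88.1%, beside 9.74% of all genes), with a median of 1.31. Top2a differed by 2.24, Ccnf, a cyclin that marks proteins for breakdown in G2, by 1.86, Pbk, a mitotic kinase, by 2.54, and Cdc25b, a phosphatase that activates CDK1, by 1.11. None of the 42 had a negative call.

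Of 13 kinesins 9 had a positive difference (69.2%, beside 9.74% of all genes), led by Kif22 with 1.60 and Cenpe with 1.45. Kifc1, a kinesin of the spindle pole, rose in both tissues, by 1.39 and 0.64, and its difference of 0.75 did not pass (95% interval 0.17 to 1.34, adjusted p = 0.0678). Of 36 kinetochore and centromere genes 27 had a positive difference (75%), including Cenpk with 1.93 and Spc25 with 1.78. Among condensin and cohesin genes it was 15 of 20 (75%). Ncapg2, a condensin II subunit, had gaps of −2.88, −2.80, −2.65, −2.62 and −3.42 in the controls and −0.44, −0.68, −0.51, −0.11 and −0.57 in Rb KO, a difference of 2.41 ± 0.15 (adjusted p = 1.3e-06).

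Genes that copy and guard chromatin were called as well. Of 20 genes of DNA methylation, polycomb and histone assembly, 15 had a positive difference (75%, beside 9.74% of all genes). Among them were the maintenance methyltransferase Dnmt1 with 2.02, the polycomb methyltransferase Ezh2 with 1.12 and the histone chaperone Asf1b with 1.34. The de novo methyltransferases Dnmt3a and Dnmt3b both had 0.05, not called. Of 43 repair and checkpoint genes, 24 had a positive difference (55.8%) and none a negative one. Brca1, which directs repair by homologous recombination, led with gaps of −3.16, −3.31, −2.55, −2.42 and −3.17 in the controls and −0.09, −0.41, −0.39, −0.22 and −0.22 in Rb KO, a difference of 2.65 ± 0.16. Rad51c and Nbn, both of the same repair route, rose in both tissues, and their differences of 0.31 (95% interval 0.02 to 0.59) and 0.35 (0.07 to 0.63) did not pass the adjusted threshold. The other probe set of Rad51c gave 0.82, which was called.

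**Figure D3:**
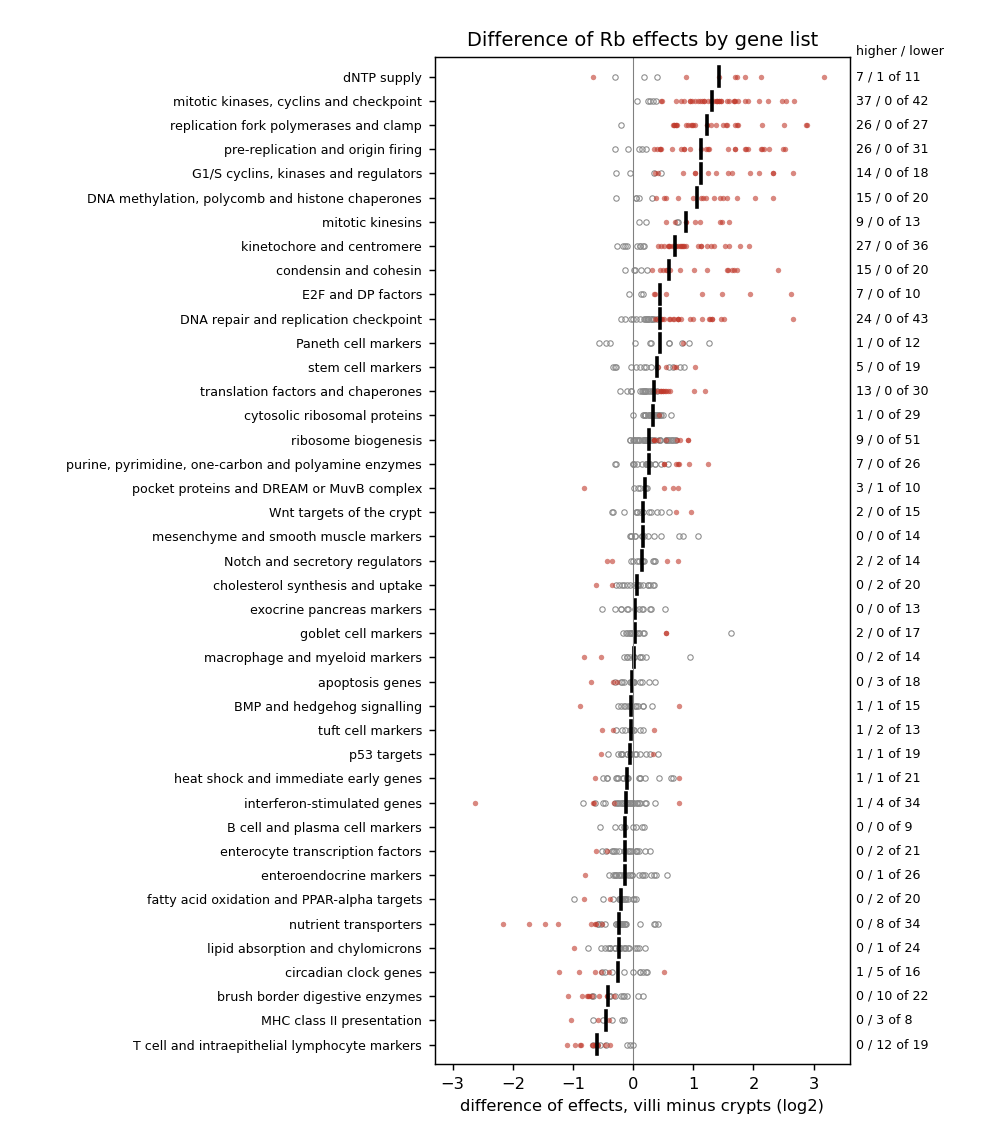
Difference of effects (villi minus crypts, log2, horizontal axis) of every tested member of the 41 gene lists with 8 or more tested members, sorted by median (black bar); red points passed an adjusted p of 0.05, open grey points did not, and the numbers at the right count the positive and negative calls. The 9 lists of highest median all concern DNA synthesis, division or chromatin, and T cell markers have the lowest median, −0.60.

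The linker histone gene H1f2 went the other way. Its gaps were 0.58, 1.24, 0.53, 0.23 and 1.11 in the controls and −0.78, −0.82, −0.71, −0.85 and −0.46 in Rb KO. They did not overlap, which its choice among the largest differences required. It fell by 1.72 in villi, its effect of −0.25 in crypts did not pass, and the difference was −1.46 ± 0.17 (adjusted p = 0.00012).

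Growth genes had smaller differences on the positive side. Of 51 ribosome biogenesis genes 9 had a positive difference and none a negative one (17.6%, beside 9.74% of all genes), with a median of 0.27. They included Nop56, a core protein of snoRNA particles, with 0.91 and Noc2l with 0.73. This count moved between 5 and 28 when single animals were left out, reaching 28 without control animal 4 and 5 without control animal 5 or Rb KO animal 5. Of 30 translation factors and chaperones 13 had a positive difference (43.3%), led by Ranbp1 with 1.20 and Ran with 1.01, both of nuclear transport. That count ranged from 8 to 18, and it was 8 without control animal 2, 3 or 5 or Rb KO animal 4 or 5. Among 29 ribosomal protein genes 1 passed (3.45%, below the 9.74% of all genes with a positive difference), and the median was 0.33. Of 26 enzymes of nucleotide, one-carbon and polyamine metabolism 7 had a positive difference (26.9%, beside 9.74% of all genes). They included Ctps, which makes CTP, with 1.25 and Mthfd2, a mitochondrial folate enzyme, with 0.92. Myc, which drives growth genes, had gaps that overlapped and a difference of 0.26 (95% interval −0.24 to 0.75, adjusted p = 0.468).

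Genes of absorption and digestion were called on the negative side, and of the 50 genes at −1 or below 4 were transporters and 1 a brush border gene of the lists. Cubn, the receptor for vitamin B12 bound to intrinsic factor, had values of 11.57, 10.81, 10.92, 11.28 and 9.33 in control villi and 7.95, 7.85, 9.26, 8.58 and 8.57 in Rb KO villi. In crypts it read 7.33, 6.45, 7.30, 5.98 and 5.84 in control and 5.68, 6.19, 6.60, 6.07 and 7.45 in Rb KO. The villus groups were apart and the crypt groups overlapped. Cubn fell by 2.34 in villi, its effect of −0.18 in crypts did not pass, and the difference was −2.16 ± 0.35 (adjusted p = 0.00107). Control crypts had a Cubn mean of 6.58, near the signal filter of 6.03, which limits how far a fall there could show. Slc5a4a, of the sodium and glucose cotransporter family, differed by −1.73 ± 0.38, Aqp8, a water channel, by −1.25 ± 0.19, and Slc2a5, the fructose transporter, by −0.63 ± 0.14. The same limit holds in part for Aqp8 and Slc5a4a, with means of 6.47 and 6.93 in Rb KO crypts. Slc2a5 lay higher, with a mean of 9.82 in control crypts. Of 34 nutrient transporters 8 had a negative difference (23.5%, beside 10.7% of all genes) and none a positive one.

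Of 22 genes of brush border digestion and structure, 10 had a negative difference (45.5%) and none a positive one, with a median of −0.42, from −0.25 in villi and 0.15 in crypts. The called members were Ace, Treh, Tmprss15, Mme, Espn, Mep1a, Xpnpep2, Ezr, Cdhr5 and Vil1, with values from −1.08 to −0.32. Mme, the peptidase neprilysin, fell by 0.37 in villi, with a value of 0.38 in crypts that did not pass, and differed by −0.75 ± 0.14 (adjusted p = 0.00316). Ace, a peptidase that trims dietary peptides, had gaps of 2.51, 2.95, 2.76, 3.89 and 2.78 in the controls and 2.02, 2.17, 1.90, 2.31 and 1.11 in Rb KO, a difference of −1.08 ± 0.26. The common enterocyte genes Alpi, Anpep and Fabp1 had differences of −0.11, −0.16 and −0.14, none of them called. Alpi and Fabp1 had means of 14.49 and 14.77 in control villi, near the highest value of 15.14. This limits what the lack of a call can show for them.

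A reading of RNA integrity moved with the genotype as well. The signal of the Gapdh control probe set near the 3′ end minus that near the 5′ end had a mean gap between villi and crypts of 0.135 in control and 0.216 in Rb KO, a difference of 0.081 (exact permutation test, two-sided p = 0.00794, the smallest it can give, and 0.0159 adjusted over the 2 transcripts tested). For Actb the difference was 0.093 (exact permutation p = 0.0159). When the 3′ to 5′ reading of Gapdh entered the fit, an alternative added after this was seen, 1787 genes were called, 1150 positive and 637 negative. Then 2 brush border genes, 2 transporters, 202 cell cycle genes and 13 T cell markers passed. Ace stood at −0.70 (adjusted p = 0.17) and Slc5a4a at −1.05 (adjusted p = 0.131), neither called, while Cubn at −1.58 and Mme at −0.81 were called. The part of RNA integrity in the negative differences was not tested further.

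Metabolic genes gave a mixed picture. Pck1, the enzyme that commits to glucose production, differed by −1.52 ± 0.34, and Bbox1, the last enzyme of carnitine synthesis, by −1.41 ± 0.21, both from a fall in villi. Aldoc, an aldolase of glycolysis, fell by 1.70 in villi and differed by −1.37 ± 0.16, while its other probe set gave −0.22, not called. The difference of Slc13a2, a carrier of citric acid cycle intermediates, was −1.46 ± 0.35 and that of Cyp2c29, a cytochrome P450, −1.51 ± 0.32. Cyp2c29 had a mean of 5.81 in control crypts, below the signal filter of 6.03, so a fall there could hardly show. Pck1 had means of 6.98 in control crypts and 6.19 in Rb KO crypts, the latter close to the same level. With the Gapdh reading as a covariate Pck1 stood at −1.12 (adjusted p = 0.109) and Slc13a2 at −0.71 (adjusted p = 0.216), neither called.

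In the list of fatty acid oxidation and PPAR-alpha targets 16 of 20 genes fell in villi and 6 in crypts, where 29.0% and 10.7% of all genes were called in either direction. The difference of effects was called for 2, which at 10% is near the 10.7% of all genes, and the median difference was −0.20. Ehhadh, a peroxisomal enzyme of fatty acid breakdown, had gaps of 0.81, 0.65, 0.81, 0.68 and 1.10 in the controls and 0.12, 0.12, −0.05, −0.17 and −0.01 in Rb KO, a difference of −0.81 ± 0.10 (adjusted p = 0.00017). Cpt2, which takes fatty acids into mitochondria for oxidation, differed by −0.38. Acot1, Acot2 and Slc25a20 fell in both tissues and had differences of 0.05, −0.08 and 0.00, not called. Pdk2 and Aldh6a1, picked after their values were seen, fell in both tissues and fell more in villi, with differences of −0.90 ± 0.11 and −0.96 ± 0.13.

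Lymphocyte markers had negative differences. Of 19 T cell and intraepithelial lymphocyte markers 12 had a negative difference (63.2%, beside 10.7% of all genes) and none a positive one, with a median of −0.60, from −0.47 in villi and 0.02 in crypts. Cd8a, the co-receptor of cytotoxic T cells, had gaps of 3.68, 3.97, 3.80, 3.62 and 3.66 in the controls and 2.90, 3.45, 2.96, 2.75 and 2.36 in Rb KO. Its difference was −0.86 ± 0.16 (adjusted p = 0.00291), and the animals of the genotypes did not overlap. The Cd8a effect of −0.67 in villi did not pass on its own (adjusted p = 0.0548). Nkg7, a granule protein of cytotoxic cells, differed by −1.10 and Itgae, the integrin that holds them in the epithelium, by −0.67. Klrd1, a receptor of such cells, differed by −0.97, and here the called effect was a rise of 0.76 in crypts. Cd4 had −0.05, not called. Control crypt means were 6.31 for Cd8a, 5.54 for Cd247 and 5.32 for Klrd1, near or below the signal filter of 6.03. A fall in crypts could hardly show for these markers. Cd3e (7.88), Ptprc (7.61) and Itgae (7.16) lay higher in control crypts. In bulk RNA, fewer cells of a type and less RNA per cell cannot be told apart. Without the block 5 of the 19 passed, and without Rb KO animals 4 and 5 together also 5.

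Of 8 genes of MHC class II presentation 3 had a negative difference, H2-Ab1, an MHC class II chain, with −1.04, H2-DMa, which loads peptides onto class II, with −0.59 and the protease gene Ctss with −0.41. This is 37.5%, beside 10.7% of all genes, but of 26 alternative settings the call was lost in 16 for H2-Ab1, 13 for Ctss and 10 for H2-DMa. The H2-Ab1 gaps of 0.89, 2.14, 0.43, 0.12 and 1.39 in the controls and 0.26, −0.78, 0.14, 0.13 and 0.03 in Rb KO overlapped. Of 34 interferon-stimulated genes 4 had a negative difference (11.8%, near the 10.7% of all genes) and 1, Trim30a, a positive one (2.94%, beside 9.74%). In control animal 1 Trim30a read 9.14 in villi and 7.25 in crypts, within the Rb KO ranges of 8.67 to 9.96 and 6.81 to 7.44. The other controls read 7.04 to 7.80 in villi and 5.65 to 6.11 in crypts. Ubd, a ubiquitin-like protein induced by interferon gamma, had the largest negative difference of the named genes, with gaps of 3.38, 3.24, 2.62, 1.42 and 3.01 in the controls and 1.14, −0.80, 1.35, −0.02 and −1.15 in Rb KO. It fell by 2.44 in villi, its effect of 0.19 in crypts did not pass, and the difference was −2.63 ± 0.49 (adjusted p = 0.00274). Its crypt means of 5.82 in control and 6.01 in Rb KO lay below the signal filter of 6.03, where a fall could hardly show.

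**Figure D4:**
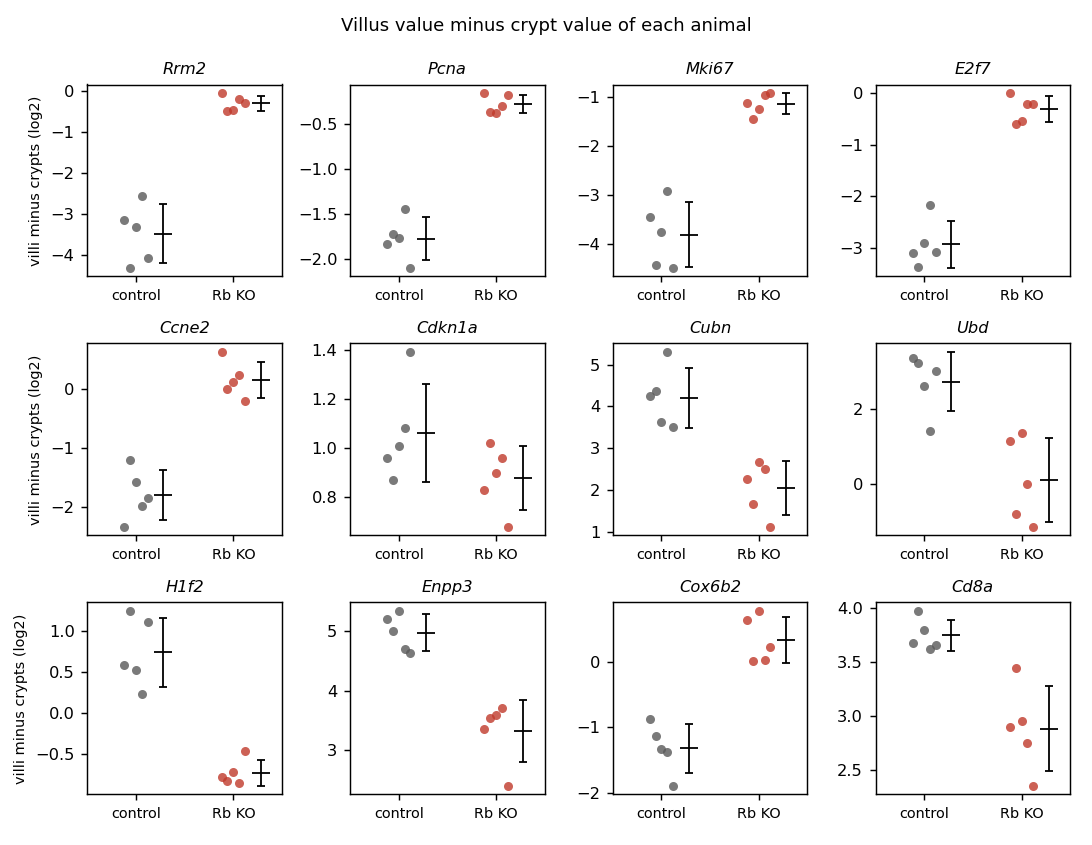
Villus value minus crypt value (log2, vertical axis, scale differs by panel) of each animal for 12 genes, control in grey and Rb KO in red, with mean ± SD (n = 5) at the right of each group. The genotypes are apart in every panel except that of Cdkn1a. For Rrm2, Mki67, E2f7, Cubn, Ubd, H1f2, Enpp3 and Cox6b2 this was a condition of their choice. Rb KO animal 5 stands off in Enpp3 (2.40), and control animal 4 is the lowest of the controls in Ubd (1.42).

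Markers of other cells that a villus preparation can hold were read beside these results. The crypt marker score, the mean of 9 stem cell and Paneth cell genes with the tissue mean at 0, was 0.21, −1.16, −0.22, 1.09 and −1.03 in control villi and 0.28, 0.00, −0.34, 0.95 and 0.24 in Rb KO villi, which overlap. None of the 9 genes had a called difference, and their values ran from 0.05 for Ascl2 to 1.26 for Itln1. With the score as a covariate 1872 genes were called, 191 of the 278 cell cycle genes had a positive difference, and the difference of Rrm2 was 2.76 and that of Mki67 2.26. The score of villus enterocyte markers lay between −0.06 and 0.06 in control villi and between −0.09 and 0.10 in Rb KO villi. In crypts it lay between −0.65 and 0.22 in control and between −0.09 and 0.45 in Rb KO, with means of −0.14 and 0.14. This score was not used as a covariate, and its part in the crypt effects was not tested. Markers of exocrine pancreas were high on the crypt arrays of control animal 1 (2.44) and Rb KO animal 3 (2.00).

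**Figure D5:**
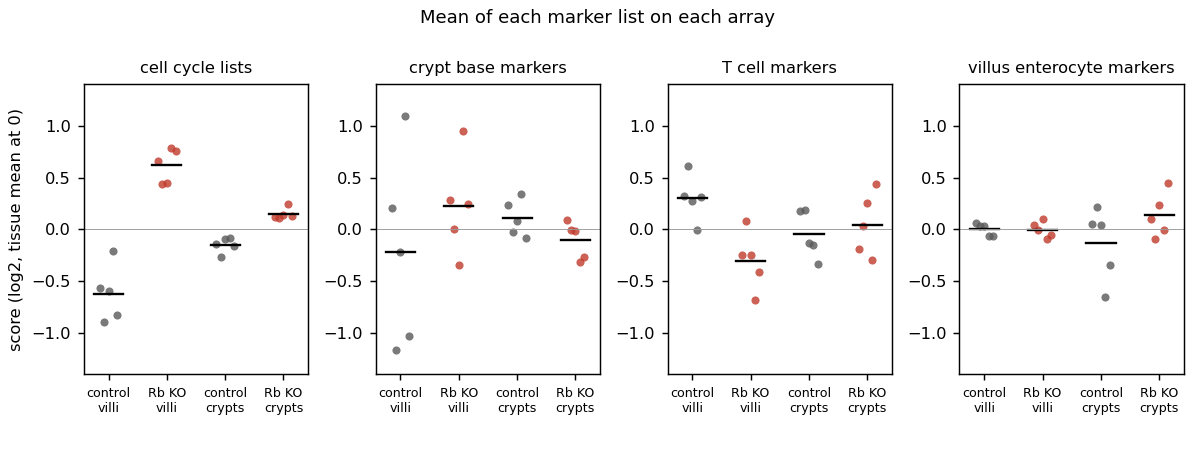
Mean of a marker list on each array (log2, vertical axis, tissue mean at 0) in the 4 groups of 5 arrays, control in grey and Rb KO in red, with group means as bars. The 278 cell cycle genes separate the genotypes in both tissues, by more in villi, the crypt base markers spread from −1.16 to 1.09 in control villi, and T cell markers are lower in Rb KO villi than in all but 1 of the control villus arrays.

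Of 19 stem cell markers 5 had a positive difference (26.3%, beside 9.74% of all genes), among them Znrf3, a Wnt feedback ligase, with 0.71, Cdca7 with 1.02 and Prom1 with 0.68. Lgr5, Olfm4 and Ascl2, which define the stem cell at the crypt base, had 0.40, 0.66 and 0.05, none called. Of 15 Wnt targets 2 passed (13.3%), Znrf3 and the adhesion receptor gene Cd44 with 0.96. Of 17 goblet cell markers 2 passed (11.8%, near the 9.74% of all genes), and the median was 0.03. They were Muc2, the secreted mucin, and Agr2, which folds it, each with 0.55, and their calls were lost in 14 and 10 of 26 alternative settings. Tff3, a goblet cell peptide, had −0.05, not called. Of 12 Paneth cell markers 1 passed (8.33%), Nupr1 with 0.83, and of 26 enteroendocrine markers 1 (3.85%), Sct, the gene of secretin, with −0.80. The Wnt, Paneth and enteroendocrine shares are near or below those of all genes. No marker of B cells, endothelium, mesenchyme or exocrine pancreas was called.

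In the circadian clock list 5 of 16 genes had a negative difference (31.2%, beside 10.7% of all genes) and 1 a positive one. Per2, a repressor of the clock, had gaps of 1.23, 1.81, 1.48, 1.21 and 2.15 in the controls and 0.58, 0.44, 0.43, 0.25 and −0.01 in Rb KO, a difference of −1.24 ± 0.17 (adjusted p = 0.00044). Its effects of −0.16 in villi and 1.08 in crypts did not pass on their own. Dbp, an output gene of the clock, differed by −0.90, and Nr1d1, a repressor of Arntl, by −0.64, while Arntl differed by 0.52. Rb KO animals 4 and 5 stood above the other Rb KO animals in both tissues for Per2 and Dbp, and in crypts only for Nr1d1. Per2 read 8.72 and 8.50 in their villi against 7.24, 7.09 and 7.90, and 8.47 and 8.51 in their crypts against 6.66, 6.66 and 7.47. Dbp read 11.12 and 11.27 in their villi against 9.12, 9.10 and 10.09. The part of these animals in the effects within a tissue was not tested, and the hour of tissue collection is not in the labels.

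A smaller set of genes was altered by Rb loss chiefly in crypts. Enpp3, an enzyme that cleaves nucleotides outside the cell, read 12.79, 13.43, 13.38, 12.73 and 13.11 in control villi and 13.25, 13.35, 13.34, 12.94 and 12.83 in Rb KO villi. In crypts it read 7.58, 8.43, 8.04, 8.03 and 8.49 in control and 9.88, 9.80, 9.75, 9.24 and 10.43 in Rb KO. The crypt groups were apart by genotype and the villus groups overlapped. Enpp3 rose by 1.71 in crypts, its effect of 0.05 in villi did not pass, and the difference was −1.65 ± 0.22 (adjusted p = 0.00034). Of its other probe sets, those at −1.75 and −1.23 were called and those at −0.24 and −0.47 were not. Ces1g, a carboxylesterase chosen after its values were seen, rose by 1.04 in crypts and differed by −1.28 ± 0.12, with gaps of 1.77, 1.96, 1.96, 2.09 and 1.73 in the controls and 0.49, 0.59, 0.67, 1.02 and 0.35 in Rb KO. Bmp2, a ligand that restrains crypt proliferation, rose by 0.62 in crypts and differed by −0.88. Apoc3, an apolipoprotein of enterocytes, rose by 1.09 in crypts and differed by −0.99. It was lowest in the crypts of control animals 4 and 5 (10.58 and 10.50) and highest in those of Rb KO animal 5 (13.10). The villus enterocyte score was also lowest (−0.65 and −0.34) and highest (0.45) on the same crypt arrays. The remaining crypts read at most 12.01 in control and at least 12.17 in Rb KO. Enpp3 (10.43) and Ces1g (9.30) were also highest in the crypts of Rb KO animal 5. Their lowest crypt values were in control animal 1 (7.58) and control animal 4 (7.36). The part of enterocyte RNA in the crypt rises of Enpp3, Ces1g and Apoc3 was not tested. Control and Rb KO villus means of Apoc3, 14.20 and 14.31, lay near the highest value of 15.14.

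In the genes with called effects in opposite directions, Cox6b2 stood out. It encodes a subunit of cytochrome c oxidase known from testis, and it rose by 1.26 in villi and fell by 0.40 in crypts. Its gaps were −0.87, −1.13, −1.33, −1.37 and −1.89 in the controls and 0.65, 0.01, 0.78, 0.03 and 0.23 in Rb KO, and its difference was 1.66 ± 0.19 (adjusted p = 0.00012). Wbp2, Tmem189 and Vav2 went the other way, down in villi and up in crypts, with differences of −0.79, −0.76 and −0.68. Ros1, a receptor tyrosine kinase, fell in both tissues and fell more in crypts, by 0.92 against 0.41, a difference of 0.52 ± 0.15 (adjusted p = 0.0247). The call of Ros1 was lost in 10 of the alternative settings. Trim30d, a gene of the Trim30 cluster chosen after its values were seen, read 10.17 in the crypts of control animal 1, 4.51 to 5.18 in the other control crypts and 9.71 to 10.42 in Rb KO crypts. In villi control animal 1 read 11.54, the other controls 7.53 to 9.75 and Rb KO 11.32 to 11.60. Control animal 1 thus stood at the Rb KO level in both tissues, and the rises of 4.16 in crypts and 2.21 in villi average it in. The difference was −1.94 with it and −2.44 (adjusted p = 0.00022) without it.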

How the data were processed

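The arrays hold total RNA of villi or crypts. The deposited values are the authors' log2 expression values per probe set, from 2.64 to 15.14, and their normalization is not given in the sources used here. Arrays shared 867 to 1251 identical values with arrays of their tissue and 159 to 233 with arrays of the other. Of 45101 probe sets 34958 had 1 gene symbol, 932 several and 9211 none in the platform annotation, and only those with 1 were used, which gave 18193 genes. Symbols were updated by gene ID, found for 34754 probe sets. Each gene was read from its probe set of highest mean signal, and the 12735 genes whose mean exceeded the 30th percentile (6.03) were tested. Of 1609 called genes with several probe sets, 12 had a probe set called the other way. In some named genes the other probe sets were not called. These include Tcf19 (0.04), Cdk2 (−0.05), Pola1 (−0.19), Cenpk (−0.02 and −0.15) and Vav2 (−0.43 and −0.24). All 3 probe sets of Rrm2 and all 4 of Mcm7 were called in the same direction.

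The difference of effects was estimated in limma (version 3.58.1, run under R 4.3.3) with the animal as a block (8 residual degrees of freedom before moderation), two-sided, with Benjamini-Hochberg adjustment at 0.05 over all genes. Called means past that threshold. Effects within a tissue were fitted without the block. Same-numbered villus and crypt arrays of a genotype deviated together in all 10 pairs (r from 0.292 to 0.579), and 9 of 10 correlated best with their own number. On simulated data with 12735 genes the fit recovered 82 of 100 genes changed 1.5-fold and 96 of 100 changed 2-fold, with 6 false calls.

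Gene lists (44, of which 43 had a tested member) and all members were chosen with earlier results of these data known. Named genes were Rb1, the largest differences with genotypes fully apart, genes of opposite or larger crypt effects, the called members of smallest p of each list, and cell cycle genes called in both tissues without a called difference. Other list members named, Myc, E2f1, E2f3, Ccne1, Cdkn1a, Cdkn1b and Cdkn2d were chosen after their values were seen. Alternatives were the block, probe set rule, filter, normalization, samples, covariates and threshold. The Gapdh covariate was chosen after seeing the data. Figures were drawn with matplotlib 3.10.9. The arrays of mice lacking both Rb and Myc entered only the alternative with all 30 arrays.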

Additional observations from a re-analysis of the deposited data

Results flagged for a closer look

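The 2604 genes called for the difference of effects are listed here as a difference between the tissues under the same contrast, tested as an interaction. Cox6b2 (1.66), Wbp2 (−0.79), Tmem189 (−0.76) and Vav2 (−0.68) also had effects called in opposite directions in villi and crypts.

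For 12 of the genes named, the gap between villi and crypts of 1 animal stood far from the other 4 of its genotype by Dixon's criterion, which chance meets in about 1 of 20 groups. With 155 named genes and both genotypes of each, 12 is not above that share. Control animal 4 stood off for Pck1 (5.32), Slc13a2 (4.91), Klrd1 (3.38) and Muc2 (−0.51). Rb KO animal 5 stood off for Enpp3 (2.40), Apoc3 (1.07) and Ccnd3 (−0.43). The remaining values were Wbp2 in Rb KO animal 4 (0.45), H2-Ab1 in Rb KO animal 2 (−0.78), Pdk2 in Rb KO animal 3 (−0.05), Lin9 in control animal 1 (−1.50) and Ccne1 in control animal 2 (−0.61). Control animal 4 also had the highest crypt marker score of the control villi, 1.09, and the part of this in its gaps was not tested.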

How the results depend on the processing

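Without the animal as a block, which drops the pairing of villi and crypts, 1571 genes were called, 829 positive and 742 negative, beside 2604, 1241 and 1363 with it. Leaving out single animals gave 1868 to 2767 genes, 967 to 1502 positive and 901 to 1412 negative. An adjusted p under 0.01 left 1171 (669 and 502), a difference of at least 1 left 266 (216 and 50), and leaving out Rb KO animals 4 and 5 left 1465 (731 and 734). The Gapdh reading as a covariate gave 1787 (1150 and 637, 64.4% positive instead of 47.7%), and the crypt marker score 1872 (947 and 925). Quantile normalization put 54.9% of calls on the positive side and the mean of all probe sets 42.0%. Among the 278 cell cycle genes 207 had a positive difference, 197 to 216 with single animals left out and 122 at a difference of at least 1. T cell markers (12) gave 5 without the block, 7 with the crypt score, 5 without Rb KO animals 4 and 5, 5 at an adjusted p under 0.01 and 1 at a difference of at least 1, and 8 to 14 with single animals left out. In the same order brush border genes (10) gave 2, 8, 6, 4 and 1, with 2 under the Gapdh covariate and 8 to 14 with single animals left out. Transporters (8) gave 3, 9, 4, 4 and 4, with 5 under a random block, 2 under the Gapdh covariate and 6 to 8 with single animals left out. Ribosome biogenesis genes (9) gave 3, 5, 2, 3 and 0, with 17 under quantile normalization, 20 with all 30 arrays, 15 with a sex term, 22 under the Gapdh covariate, 30 without control animals 1 and 4, and 5 to 28 with single animals left out. Translation factors (13) gave 6, 7, 5, 6 and 2, with 20 without control animals 1 and 4 and 8 to 18 with single animals left out. None of 155 named genes reversed, and 60 of the 144 called kept their call in each of 26 settings. The causes of these shifts were not tested. The small number of arrays limits what can be detected.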
